A study of Mus musculus with 12 samples.

Results

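Brains of mice that received conduritol B epoxide (CBE) together with GZ-667161 were compared with brains of mice that received phosphate-buffered saline (PBS). The comparison takes the 4 samples labelled CBE+GZ-667161 and the 4 labelled PBS out of the 12 samples of the series. All 8 were whole-brain RNA of C57BL/6 mice at postnatal day 40, and no genetic alteration is given for either group. The remaining 4 samples, labelled CBE, came from mice given CBE alone, 2 at day 34 and 2 at day 40. They entered the statistical fit and were used where a level is set beside CBE. Doses, schedules, sex and the number of animals behind a sample are not given in the sources used here.

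CBE binds covalently to the lysosomal β-glucosidase that breaks down glucosylceramide, and its injection into young mice is used as a chemical model of neuronopathic Gaucher disease. GZ-667161 enters the brain and inhibits glucosylceramide synthase, the enzyme that makes the same lipid from ceramide, which is the principle of substrate reduction. Because both drugs were given together, the comparison asks which transcripts still differed from untreated brain when synthesis was inhibited alongside breakdown. No group received GZ-667161 without CBE, so its effect in untreated brain cannot be estimated here. Brain diseases with lysosomal storage are known for activated microglia and astrocytes and for a type I interferon response. In that response, sensors of nucleic acids induce interferon, the interferon receptor activates STAT and IRF transcription factors, and these switch on antiviral effectors, antigen presentation and chemokines.

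Total counts of the 8 libraries ran from 2217976 to 6521257. Levels are given as CPM, counts scaled to the size of the library with the TMM method, in the order of replicates 2, 3, 4 and 5 of each group. Fold changes are log2 values of CBE+GZ-667161 over PBS with their standard error (SE) from edgeR's quasi-likelihood test, and a gene is called when its p, adjusted over all tested genes by Benjamini and Hochberg, is under 0.05. Samples of a group differed beyond counting noise (chi-square per degree of freedom 4.14 to 13.3). Whether each sample came from its own mouse is not given, and the tests therefore weigh differences against a spread among samples that may be partly technical.

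The 8 samples were not alike in Xist or in region markers. Xist, which is made from the silenced X chromosome of females, was measured at 0.265, 0.213, 7.96 and 18.3 CPM in PBS. In CBE+GZ-667161 it was at 25.7, 13.9, 0.419 and 11.1 CPM. Y-linked genes together had 34, 38, 1 and 0 counts in PBS and 1, 0, 84 and 1 in CBE+GZ-667161, high where Xist was low. Summed over 8 markers of the striatum, a deep forebrain nucleus, the level was 263, 1412, 322 and 200 CPM in PBS and 271, 1366, 260 and 212 CPM in CBE+GZ-667161. Replicate 3 of each group therefore stood apart in striatal RNA. Of 6 region markers of the cerebellum 2 had counts. In these 8 samples Pcp2, a marker of Purkinje cells, reached at most 1.73 CPM, and Slc1a6, a glutamate transporter, lay at 12.3 to 27.8 CPM. A longer list of cerebellar neuron genes, 12 of 16 with counts, summed to 385 to 490 CPM. That list shares members with other neuronal lists. None of the 4 hypothalamic markers with counts exceeded 8.23 CPM, although the label reads whole brain. The 7 cortical markers summed to 1251 to 2116 CPM. These region markers were chosen after the data were seen. Ttr, the main transcript of the choroid plexus, lay at 20.6, 11.5, 11.3 and 103 CPM in PBS and 329, 62.6, 27.2 and 15.1 CPM in CBE+GZ-667161, so that 1 sample of each group was far above the rest. The fit without both striatum-high samples, which has fewer samples, called 267 genes, against 435 in all samples. With striatal marker level as a term on all samples 448 were called, 423 of them among the 435. The fit without the sample richest in Ttr of each group called 369, and that with Ttr level as a term 498. With Xist class as a term 410 were called, with Xist level as a term 421, and in the 5 Xist-high samples alone 143. The part of sex and region in single results was not tested beyond these fits.

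**Figure D1:**
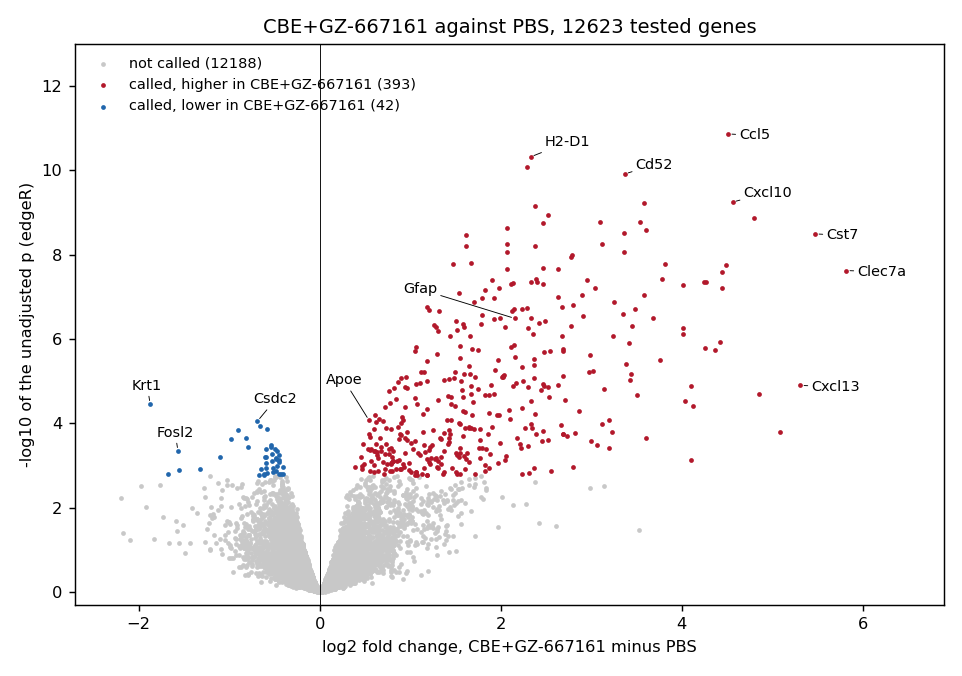
Each point is 1 of 12623 tested genes, with the log2 fold change of CBE+GZ-667161 over PBS on the x axis and -log10 of the unadjusted edgeR p on the y axis. Red points are the 393 genes called higher and blue points the 42 called lower. The called genes lie mostly on the right, out to Clec7a at 5.82.

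Of 12623 tested genes, 435 were called, which is 3.45%. Among these 393 were higher in CBE+GZ-667161, or 3.11% of tested genes, and 42 were lower, or 0.333%. The median log2 fold change was 1.67 among genes called higher and -0.58 among those called lower, beside -0.00024 over all tested genes. The 4 samples of one group did not overlap those of the other in 418 of the called genes, a separation seen in 9.78% of tested genes. At an unadjusted p under 0.05 there were 1658 genes. DESeq2 called 554 genes, of which 103 were lower, and limma-voom 425. The number called lower was 11 without PBS replicate 2, 18 without PBS replicate 4, 21 without treated replicate 3 and 8 without treated replicate 4. The authors' deposited table held 539 called genes for these groups, 463 higher and 76 lower in CBE+GZ-667161, and 424 of the 435 were called there in the same direction. The first principal component of the 8 samples held 34.2% of the variance. On it the PBS samples lay at 19.1 to 29.3 and the CBE+GZ-667161 samples at -33.0 to -10.4, with replicate 2 of the treated group nearest to PBS.

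Interferon-pathway lists held 61 of the 393 genes that rose. Of the sensors of foreign or misplaced nucleic acids, 5 of 11 tested genes rose and 0 fell (median 1.56). Zbp1, a sensor of left-handed nucleic acid, was at 0.265, 1.06, 1.68 and 1.23 CPM in PBS and 10.9, 25.3, 24.3 and 21.8 CPM in CBE+GZ-667161 (log2 fold change 4.27 ± 0.45, edgeR adjusted p = 1.4e-05). Every treated sample lay above every PBS sample. Ifi204, a DNA sensor of the p200 family, changed by 4.44 ± 0.48 (adjusted p = 1.6e-05) and Ifih1, which encodes the RNA sensor MDA5, by 2.14 ± 0.35 (adjusted p = 0.0010). Ifi204 belongs to a cluster of near-identical genes, so reads may have been divided among its copies.

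Below the sensors, 9 of 20 tested genes of interferon receptors, IRF and STAT factors rose and 0 fell (median 1.01). Irf7, the transcription factor that amplifies interferon production (mm10 chromosome 7, 141262706 to 141266481, minus strand), was at 10.8, 7.87, 11.3 and 18 CPM in PBS and 97.7, 151, 187 and 157 CPM in CBE+GZ-667161. The lowest treated sample was thus above the highest PBS sample, and the log2 fold change was 3.59 ± 0.28 (adjusted p = 1.2e-06). Irf8, a factor of myeloid cells, rose by 2.13 ± 0.23 (adjusted p = 1.4e-05), with 55.2 CPM in replicate 5 against 27.9 to 31.0 CPM in the other treated samples.

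Of the interferon-induced effectors, 41 of 52 tested genes rose and 0 fell, with a median of 2.28 and log2 fold changes from 0.24 to 4.42. Leaving out 1 sample at a time gave 36 to 41, the fit without both striatum-high samples 31 and the 5 Xist-high samples alone 28. With striatal marker level as a term the number was 41. Bst2, which encodes tetherin, a protein that holds budding virus at the cell surface, was at 26.2, 18.7, 26.8 and 21.8 CPM in PBS and 110, 221, 230 and 232 CPM in CBE+GZ-667161. Replicate 2 was the lowest of the treated group by a wide margin and still lay above every PBS sample. The log2 fold change was 3.09 ± 0.26 (adjusted p = 1.8e-06). Isg15, a ubiquitin-like modifier, was at 15.9, 16.4, 18.4 and 14.3 CPM in PBS and 110, 171, 208 and 172 CPM in CBE+GZ-667161 (3.36 ± 0.32, adjusted p = 4.8e-06). Ifit1, whose product binds viral RNA, rose by 3.60 ± 0.31 (adjusted p = 2.3e-06), from 2.93 to 5.32 CPM in PBS to 35.9 to 68.9 CPM in treated samples. In the families of interferon-inducible GTPases that attack the vacuoles of intracellular microbes, 6 of 8 tested genes rose and 0 fell. Irgm1, Igtp and Gbp3 changed by 2.47 ± 0.21, 2.46 ± 0.25 and 2.68 ± 0.31 (adjusted p = 1.8e-06, 8.6e-06 and 3.6e-05), although the GTPases also contain closely related copies. The 8 tested members of this list did not overlap between the groups.

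Interferon factors bind a short promoter element built of 2 GAAA-like repeats, and the promoters of the first 4 named effectors and GTPases that hold it are shown because these genes rose together. They were read from RefSeq on GRCm38.p6, 5′ to 3′ along the strand of the gene, with capitals for matches to GAAANNGAA on either strand, overlapping matches merged, and 40 bases on each side.
Bst2 (chr8:71537548-71537642, minus strand): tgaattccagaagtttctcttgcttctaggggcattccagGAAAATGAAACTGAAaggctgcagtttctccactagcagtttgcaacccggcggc
Irgm1 (chr11:48871396-48871490, minus strand): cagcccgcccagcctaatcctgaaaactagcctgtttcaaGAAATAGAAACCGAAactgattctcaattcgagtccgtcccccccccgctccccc
Ifit1 (chr19:34640740-34640853, plus strand): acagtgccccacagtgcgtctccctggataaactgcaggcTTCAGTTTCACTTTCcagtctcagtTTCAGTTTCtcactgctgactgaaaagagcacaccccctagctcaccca
Isg15 (chr4:156200836-156200936, minus strand): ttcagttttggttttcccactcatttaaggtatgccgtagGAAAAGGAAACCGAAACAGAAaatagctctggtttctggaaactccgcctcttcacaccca
Distances are from the RefSeq start of transcription. Bst2 has 2 overlapping matches that begin 130 and 124 bases before this start, and Irgm1 has 2 that begin 30 and 24 bases before it. In GENCODE M21 Irgm1 runs from 48861968 to 48871683, so by that annotation its matches lie inside the gene. Ifit1 has 3 matches on the opposite strand, from 109 to 84 bases before the start, and Isg15 has 3 in a row, from 78 to 66 bases before it. Windows of 250 bases before to 50 bases after the start were matched by symbol for 9628 of the 12623 tested genes. The element occurred in 8.56% of all windows in the table and in 6.85% of those of tested genes. It occurred in 67 of 372 windows of genes called higher (18%), 5 of 39 windows of genes called lower (12.8%) and 26 of 58 windows of called members of the interferon lists (44.8%). Outside these lists it was present in 41 of 314 windows of genes called higher (13.1%). The interferon lists hold genes known to respond to factors that bind this element, so a high share among them came with the choice of lists. No share was computed for list members that were not called. The window of Irf7 held no match. A match is a string of letters in this window and shows no binding.

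Antigen presentation was higher for class I, while 1 class II gene passed. Class I molecules display peptides from inside the cell to CD8 T cells, and 12 of 15 tested genes of this route rose and 0 fell (median 1.80). H2-D1, a classical class I heavy chain, was at 81.8, 77.9, 70.4 and 80.0 CPM in PBS and 263, 399, 448 and 453 CPM in CBE+GZ-667161 (log2 fold change 2.33 ± 0.16, adjusted p = 3.0e-07). H2-K1 changed by 2.38 ± 0.19 and H2-Q7, a non-classical gene with near-identical neighbours, by 4.25 ± 0.45 (adjusted p = 1.2e-06 and 1.4e-05). All 7 tested class II genes had a log2 fold change above 0 (median 1.0) and 5 were higher at an unadjusted p under 0.05, but after adjustment 1 rose, H2-Oa (1.51 ± 0.39, adjusted p = 0.043). DESeq2 called 2 of the 7 and limma-voom 0. Its groups overlapped, and the call ended when any sample other than PBS replicate 3 or treated replicate 2 was left out (adjusted p from 0.074 to 0.15).

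The proteasome, which cuts the peptides for class I, differed by subunit. All 5 genes of the immunoproteasome and its activator rose (median 0.65), whereas of 14 genes of the constitutive core 0 were called by edgeR, DESeq2 or limma-voom and 1 was lower at an unadjusted p under 0.05 (median -0.05). Psmb8, the inducible counterpart of a catalytic core subunit, was at 15.9, 18.7, 9.63 and 14.5 CPM in PBS and 60.4, 81.2, 74.9 and 95.8 CPM in CBE+GZ-667161 (2.37 ± 0.22, adjusted p = 3.8e-06), so the groups were far apart. Psmb9, another inducible catalytic subunit, rose by 1.87 ± 0.32 and Psme2, a subunit of the activator ring, by 0.65 ± 0.13 (adjusted p = 0.0015 and 0.0048). Without both striatum-high samples 3 of the 5 were called, and with striatal marker level as a term all 5.

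**Figure D2:**
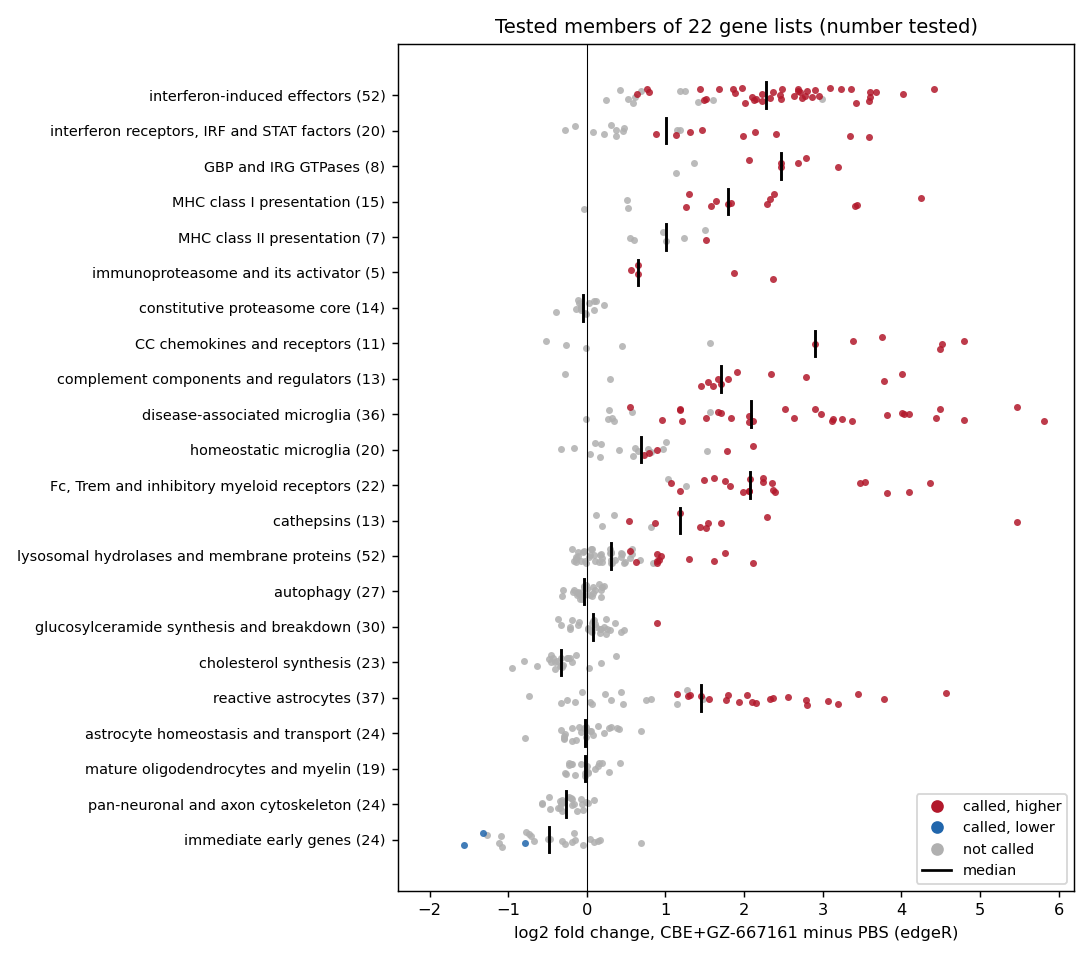
Each row is 1 of 22 gene lists, each point a tested member at its log2 fold change of CBE+GZ-667161 over PBS, and the black bar the median. Called members are red when higher and blue when lower. The interferon effectors (median 2.28) lie to the right, while the constitutive proteasome (-0.05), autophagy (-0.03) and myelin lists (-0.02) centre on 0.

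Chemokines, the secreted proteins that draw leukocytes, were among the genes with the largest rises. Of 11 tested CC chemokine and receptor genes 6 rose and 0 fell (median 2.91), in every fit that left out 1 sample 6 or 7. Ccl5, a chemokine for T cells and monocytes (chromosome 11, 83525778 to 83530518, minus strand), was at 6.35, 6.6, 5.03 and 5.69 CPM in PBS and 80.2, 124, 173 and 173 CPM in CBE+GZ-667161. The difference was 22.8-fold (log2 4.51 ± 0.28, adjusted p = 1.7e-07), the smallest p of all tested genes. Ccl3, a chemokine of activated microglia, was at 1.59, 0.851, 1.68 and 0.615 CPM in PBS and 13.6, 39.4, 33.7 and 35.2 CPM in CBE+GZ-667161 (4.80 ± 0.40, adjusted p = 1.8e-06). Its neighbour Ccl4 changed by 4.49 ± 0.44 (adjusted p = 7.8e-06). Of 9 tested CXC and CX3C genes 4 rose. Cxcl10, an interferon-induced attractant of T cells, was at 7.94, 10.2, 6.70 and 6.77 CPM in PBS and 123, 182, 233 and 217 CPM in CBE+GZ-667161 (4.56 ± 0.36, adjusted p = 1.2e-06). Cxcl16 rose by 3.36 ± 0.29 (adjusted p = 2.5e-06). Cxcl13, an attractant of B cells, had 3 counts in the 4 PBS samples together and 128 in the treated ones, a ratio of 46.2 with a 95% counting interval of 15.5 to 227.

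No tested gene of the lists of T and NK cells or of B and plasma cells passed. Of 14 T and NK cell genes with counts 6 were tested, and of 4 B and plasma cell genes with counts 2. Cd8a and Cd69 were among the T and NK cell genes with too few counts to be tested. Cd3d and Trac, chains of the T-cell receptor complex, summed to 0.838 to 3.62 CPM in PBS and 1.73 to 4.01 CPM in CBE+GZ-667161. Of 6 tested T and NK cell genes, edgeR, DESeq2 and limma-voom called 0, and 2 were higher at an unadjusted p under 0.05. Trbc2, a constant chain of the T-cell receptor, was at 36.2, 40.6, 33.1 and 11.1 CPM in PBS and 31.1, 70.6, 89.8 and 40.1 CPM in CBE+GZ-667161. Its groups overlapped (0.97 ± 0.39, adjusted p = 0.26). Of 2 tested B and plasma cell genes the 3 tools called 0, and 1 was higher at an unadjusted p under 0.05. That gene was Ighm, the heavy chain of IgM, with 40.7, 42.8, 54.0 and 30 CPM in PBS and 55.0, 102, 83.9 and 56.6 CPM in CBE+GZ-667161 (0.86 ± 0.32, adjusted p = 0.21). All treated samples lay above all PBS samples. Border macrophage markers summed to 2.31 to 5.03 CPM in PBS and 2.5 to 5.65 CPM in CBE+GZ-667161. In the longer list of border macrophages and monocytes 3 of 10 tested genes rose, and these were Ms4a7, Ms4a6c and Ms4a6d (3.02 ± 0.46, 2.49 ± 0.31 and 2.33 ± 0.46, adjusted p = 0.00056, 6.2e-05 and 0.0057), membrane proteins that activated microglia can express as well. Csf3r, the receptor for a growth factor of neutrophils, was the 1 called gene of 4 tested in the neutrophil list (1.84 ± 0.42, adjusted p = 0.017), and the call ended without PBS replicate 2 or 3 or treated replicate 3 (adjusted p up to 0.090). The neutrophil markers with counts summed to 1.32 to 16.6 CPM in PBS and 3.56 to 17.4 CPM in CBE+GZ-667161, and without both striatum-high samples Csf3r was at 1.23 (adjusted p = 0.22).

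Of 19 tested genes of tumour necrosis factor and interleukin-1 signalling, 5 rose and 0 fell (median 0.48), and the number dropped to 3 without PBS replicate 4 or 5 or treated replicate 3 or 4. Tnfrsf1a, a receptor for tumour necrosis factor, rose by 1.31 ± 0.17 and Pycard, the adaptor of inflammasomes, by 2.24 ± 0.26 (adjusted p = 8.8e-05 and 3.8e-05). Tnfaip8l2, a restraint on Toll-like receptor signalling, rose by 1.43 ± 0.31 (adjusted p = 0.012). Among genes of cell death, 3 of 14 rose, namely Zbp1, Pycard and Gsdmd, whose product forms pores in pyroptosis (1.56 ± 0.25, adjusted p = 0.00085). Among growth factors and cytokine receptors 8 of 29 rose. They included Csf1, the growth factor of microglia (1.19 ± 0.19, adjusted p = 0.00084), Csf2rb, a shared receptor chain for myeloid cytokines (2.17 ± 0.35, adjusted p = 0.00091), and the insulin-like growth factor gene Igf1 (1.67 ± 0.28, adjusted p = 0.0015).

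Complement tags debris and synapses for removal, and 11 of 13 tested components and regulators rose and 0 fell (median 1.71). C1qa, a subunit of the recognition molecule C1q (chromosome 4, 136895917 to 136898803, minus strand), was at 208, 263, 211 and 196 CPM in PBS and 517, 839, 854 and 1092 CPM in CBE+GZ-667161, with the lowest treated sample well above the highest PBS sample (log2 fold change 1.91 ± 0.20, adjusted p = 1.3e-05). C1qb changed by 1.67 ± 0.16 (adjusted p = 7.5e-06). C4b, which is cleaved after C1q binds, was at 25.1, 16, 14.7 and 22.9 CPM in PBS and 107, 134, 121 and 190 CPM in CBE+GZ-667161 (2.78 ± 0.27, adjusted p = 5.4e-06). C3, the central component, was at 1.06, 1.49, 1.68 and 0.615 CPM in PBS and 10, 16.2, 13 and 25.8 CPM in CBE+GZ-667161 (3.78 ± 0.39, adjusted p = 1.3e-05). Of the integrin chains that bind C3 fragments, Itgb2 rose by 2.34 ± 0.25, Itgam by 1.61 ± 0.30 and Itgax by 4.01 ± 0.51 (adjusted p = 1.4e-05, 0.0033 and 7.9e-05). Without PBS replicate 5, which held most of the Itgax counts of its group, the value of Itgax was 5.26.

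Transcripts of activated microglia rose, and fewer of those of resting microglia passed the test. Of 36 genes of the disease-associated state, all tested, 29 rose and 0 fell (median 2.09), and 28 to 30 did so when 1 sample was left out. Cst7, an inhibitor of cysteine proteases (chromosome 2, 150570415 to 150578944, plus strand), was at 2.65, 2.34, 3.35 and 0.923 CPM in PBS and 46.6, 96.2, 107 and 128 CPM in CBE+GZ-667161, a 44.5-fold difference (log2 5.48 ± 0.48, adjusted p = 2.5e-06). Clec7a, a receptor for β-glucans, had 2 counts in all PBS samples and 129 in the treated ones, a ratio of 69.8 with a 95% counting interval of 18.9 to 583. Cd52 and Lyz2, a surface glycoprotein and the lysozyme of phagocytes, rose by 3.37 ± 0.24 and 2.52 ± 0.21 (adjusted p = 3.8e-07 and 1.8e-06). Gpnmb, a glycoprotein of lipid-laden phagocytes, rose by 3.14 ± 0.52 (adjusted p = 0.0011), from 0.213 to 0.838 CPM to 2.04 to 6.68 CPM.

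Of 20 tested homeostatic genes 5 rose and 0 fell (median 0.69), while 18 had a log2 fold change above 0 and 14 were higher at an unadjusted p under 0.05. The fit of only the 8 samples called 8 of them, that without both striatum-high samples 2, and that with striatal marker level as a term 5. P2ry12, the purine receptor that guides processes of resting microglia, was at 16.4, 21.1, 23.5 and 18.8 CPM in PBS and 22.3, 28.4, 18.4 and 15.1 CPM in CBE+GZ-667161. The groups overlapped throughout (0.11 ± 0.29, adjusted p = 0.94). Tmem119, a surface marker of microglia, was at 40.7, 54.0, 52.8 and 40.3 CPM in PBS and 52.5, 74.3, 64.0 and 93.5 CPM in CBE+GZ-667161 (0.59 ± 0.25, adjusted p = 0.31). The 2 with the smallest p were Aif1, the gene of the microglial marker IBA1 (1.78 ± 0.22, adjusted p = 6.9e-05), and P2ry6, a receptor that triggers phagocytosis (2.11 ± 0.29, adjusted p = 0.00019). Summed over 7 microglial markers, of which 5 rose, the level was 548 to 619 CPM in PBS and 1080 to 1796 CPM in CBE+GZ-667161. The complement gene C1qa is 1 of the 7 and made up much of this sum, at 196 to 263 CPM in PBS and 517 to 1092 CPM in CBE+GZ-667161. In bulk RNA a change in the number of cells of a type and a change in RNA per cell cannot be told apart.

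Of the receptors through which phagocytes sense lipids, antibodies and sialic acids, 20 of 22 tested genes were higher and 0 lower (median 2.07). The list has 27 members with counts, and members scarce in PBS can pass the count filter through a group where they are high. Without 1 sample at a time 14 to 19 were called. Tyrobp, the signalling adaptor of TREM2, was at 104, 129, 106 and 109 CPM in PBS and 285, 465, 558 and 572 CPM in CBE+GZ-667161 (2.07 ± 0.18, adjusted p = 2.2e-06), again without overlap. Cd180, a Toll-like receptor relative, rose by 3.54 ± 0.30 and Fcer1g, the adaptor of Fc receptors, by 2.07 ± 0.19 (adjusted p = 1.8e-06 and 3.6e-06). Of 6 tested genes of the Toll-like receptors and their partners 5 rose. Tlr2, a receptor for bacterial lipoproteins, changed by 3.04 ± 0.33, Ly86, the partner of CD180, by 1.98 ± 0.21, and Tlr13, a sensor of bacterial ribosomal RNA, by 2.48 ± 0.35 (adjusted p = 1.6e-05, 1.6e-05 and 0.00022). In 25 lists with at least 3 genes called higher, replicate 2 of the treated group had the lowest summed level of its group in 22 and replicate 5 the highest in 15. Lists share members and are not independent, and abundant members weigh most in a sum. Replicate 2 was also the treated sample with the most Ttr.

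**Figure D3:**
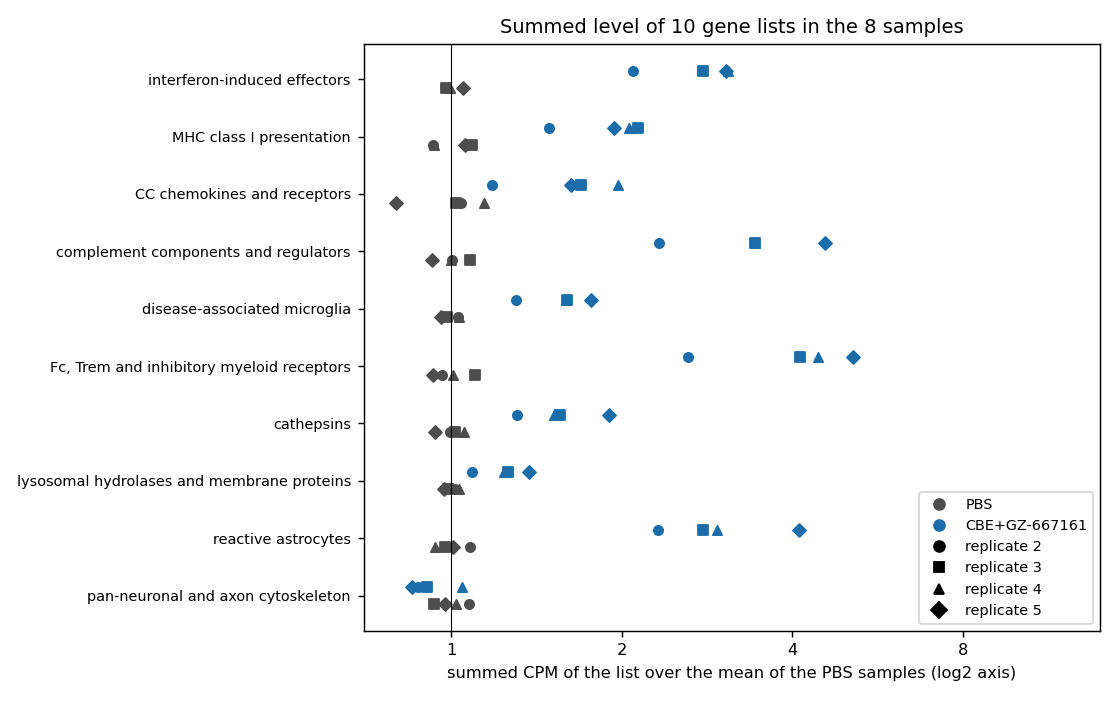
Each symbol is the summed CPM of a gene list in 1 sample, divided by the mean of the 4 PBS samples, on a log2 axis. Abundant members weigh most in a sum. Grey symbols are PBS, blue symbols CBE+GZ-667161, and the shape gives the replicate. For the interferon effectors the treated samples lie at 2.10 to 3.08 times PBS, and replicate 2 is the lowest in every list shown except the pan-neuronal list, where replicate 5 is lowest at 0.851.

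Lysosomal proteases and membrane proteins of phagocytes rose. Of 13 tested cathepsins and their inhibitors 9 rose and 0 fell (median 1.18). Ctss, a cathepsin of antigen-presenting cells, was at 141, 141, 147 and 129 CPM in PBS and 460, 737, 786 and 740 CPM in CBE+GZ-667161 (log2 fold change 2.29 ± 0.16, adjusted p = 3.4e-07). Ctsd, the main aspartic protease of lysosomes, was at 503, 545, 536 and 504 CPM in PBS and 968, 1397, 1487 and 2096 CPM in CBE+GZ-667161 (1.51 ± 0.19, adjusted p = 6.1e-05). The PBS samples were close together, while the treated samples were spread widely above them. Ctsz rose by 1.71 ± 0.19 (adjusted p = 2.8e-05). Among lysosomal hydrolases and membrane proteins 11 of 52 rose and 0 fell (median 0.30). Without both striatum-high samples 7 rose, and with striatal marker level as a term 12. Those with the smallest p were Laptm5, Cd68 and Slc11a1, membrane proteins of the lysosomes of phagocytes, at 1.61 ± 0.14, 2.11 ± 0.22 and 1.75 ± 0.24 (adjusted p = 2.5e-06, 1.4e-05 and 0.00021).

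The proton pump that acidifies the lysosome had 1 gene higher and 1 lower of 18. Tcirg1, a subunit used by osteoclasts and immune cells, was higher by 1.05 ± 0.23 (adjusted p = 0.012), a call lost without PBS replicate 5 (adjusted p = 0.052). Atp6v0a1, its neuronal counterpart, was at 656, 508, 491 and 543 CPM in PBS and 366, 423, 314 and 429 CPM in CBE+GZ-667161 (-0.52 ± 0.13, adjusted p = 0.027). This call ended without PBS replicate 2 or 5 or treated replicate 2 or 4 (adjusted p up to 0.14), and without both striatum-high samples (adjusted p = 0.060). Of 27 autophagy genes edgeR, DESeq2 and limma-voom called 0, with 2 lower at an unadjusted p under 0.05 (median -0.03).

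Ugcg and Gba2, which act in the synthesis and breakdown of the lipid that both drugs affect, did not pass. Ugcg, which encodes glucosylceramide synthase and so the target of GZ-667161 (chromosome 4, 59189257 to 59222833, plus strand), was at 20.4, 24.9, 25.1 and 28.0 CPM in PBS and 26.8, 24.5, 26.8 and 20.9 CPM in CBE+GZ-667161 (0.01 ± 0.16, adjusted p = 0.99). Gba2, the non-lysosomal β-glucosidase, was at 45.8, 51.7, 62.8 and 49.8 CPM in PBS and 56.1, 47.2, 61.7 and 56.1 CPM in CBE+GZ-667161 (0.08 ± 0.13, adjusted p = 0.89). For both genes the groups overlapped. Of 14 tested genes of ganglioside synthesis the 3 tools called 0, with 2 lower at an unadjusted p under 0.05 (median -0.08). An enzyme's transcript says nothing of its inhibition by a drug.

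Cholesterol carriers rose in part, and no synthesis gene passed the edgeR test. Of 24 tested genes of cholesterol efflux and LXR targets 4 rose and 1 fell (median 0.19). Apoe, a main lipid carrier of the brain (chromosome 7, 19696109 to 19699188, minus strand), was at 4765, 4582, 4580 and 3920 CPM in PBS and 5524, 6234, 6676 and 7638 CPM in CBE+GZ-667161 (0.55 ± 0.11, adjusted p = 0.0049). Ch25h, which makes 25-hydroxycholesterol and is induced by interferon, rose by 3.25 ± 0.37 and Npc2, which moves cholesterol out of lysosomes, by 0.94 ± 0.16 (adjusted p = 2.8e-05 and 0.0011). In the synthesis pathway edgeR and limma-voom called 0 of 23 tested genes and DESeq2 called 2 lower, while 8 were lower and 1 higher at an unadjusted p under 0.05 (median -0.33). Hmgcs1, an early enzyme of the pathway, was at 250, 334, 321 and 329 CPM in PBS and 205, 280, 280 and 204 CPM in CBE+GZ-667161 (-0.35 ± 0.15, adjusted p = 0.30), with 2 treated samples within the PBS range. Mature oligodendrocyte genes were called in 0 of 19 cases by the 3 tools and in 0 at an unadjusted p under 0.05 (median -0.02). Mbp, a main protein of myelin, ran from 2906 to 3461 CPM in PBS and from 1668 to 4171 CPM in CBE+GZ-667161.

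Reactive astrocyte genes rose in 21 of 37 tested cases and fell in 0 (median 1.46). Gfap, the intermediate filament of astrocytes (chromosome 11, 102887336 to 102900912, minus strand), was at 84.7, 59.1, 70.0 and 110 CPM in PBS and 281, 289, 288 and 600 CPM in CBE+GZ-667161. Replicate 5 was far above the other treated samples, which were close together (log2 fold change 2.16 ± 0.26, adjusted p = 5.4e-05). Serpina3n, a secreted serine protease inhibitor, was at 14.6, 27.0, 29.7 and 43.7 CPM in PBS and 147, 134, 200 and 335 CPM in CBE+GZ-667161 (2.80 ± 0.32, adjusted p = 3.3e-05). Timp1, an inhibitor of metalloproteinases, was at 2.12, 1.7, 1.26 and 0.461 CPM in PBS and 11.1, 12.1, 14.9 and 21.4 CPM in CBE+GZ-667161 (3.45 ± 0.43, adjusted p = 7.4e-05). Lcn2, an iron-trapping lipocalin, was at 3.44, 4.47, 3.35 and 2.92 CPM in PBS and 18.9, 13, 15.5 and 81.1 CPM in CBE+GZ-667161 (3.06 ± 0.68, adjusted p = 0.014). Without treated replicate 5 its value was 2.14 (adjusted p = 0.032), without PBS replicate 5 it was not called (adjusted p = 0.051), and limma-voom did not call it (adjusted p = 0.18).

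Several members of the reactive list, among them Cxcl10, H2-D1, Psmb8 and C3, are interferon or complement genes that other cells also make. Genes of astrocyte transport and homeostasis were called in 0 of 24 cases by the 3 tools, with 3 higher and 2 lower at an unadjusted p under 0.05 (median -0.03). The 5 astrocyte markers summed to 2025 to 2445 CPM in PBS and 2431 to 2653 CPM in CBE+GZ-667161. Gfap was the 1 called gene among them, and Slc1a2, the most abundant, was at 1821 to 2201 CPM in PBS and 1811 to 2040 CPM in CBE+GZ-667161. S100a6, a calcium-binding protein, was the 1 called gene of 9 in the S100 list (1.28 ± 0.16, adjusted p = 7.4e-05). Of 24 tested metallothionein, NRF2 and oxidase genes 6 rose. The 3 with the smallest p were Cyba, Cybb and Ncf1, subunits of the NADPH oxidase of phagocytes (1.58 ± 0.20, 2.98 ± 0.42 and 1.38 ± 0.22, adjusted p = 6.9e-05, 0.00026 and 0.00081), and Hmox1, which degrades heme, rose by 1.67 ± 0.27 (adjusted p = 0.0010).

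Stress, vascular and proliferation lists held 1 called gene each. Atf3, a stress-induced transcription factor, was the 1 of 27 in the unfolded protein and integrated stress lists (1.34 ± 0.32, adjusted p = 0.024), and leaving out any sample other than PBS replicate 3 or treated replicate 2 ended the call (adjusted p up to 0.078). Vwf, the endothelial gene of a clotting factor, was the 1 of 26 in the endothelial list (0.81 ± 0.20, adjusted p = 0.028), and it lost the call without any sample but PBS replicate 2 or treated replicate 2 (adjusted p up to 0.095). Cdk1, the kinase of mitosis, was the 1 of 19 in the cell cycle list (2.30 ± 0.51, adjusted p = 0.014), with 0.419 to 2.13 CPM in PBS and 2.5 to 7.15 CPM in CBE+GZ-667161. Its call ended without PBS replicate 4 or 5 or treated replicate 3 or 4 (adjusted p up to 0.066). Of the 19 cell cycle genes 16 had a log2 fold change above 0 (median 0.64), 9 were higher and 0 lower at an unadjusted p under 0.05, DESeq2 called 2, and the fit of only the 8 samples called 3. In the glucocorticoid-responsive list 1 of 16 was called against PBS, Lcn2 (list median -0.09).

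**Figure D4:**
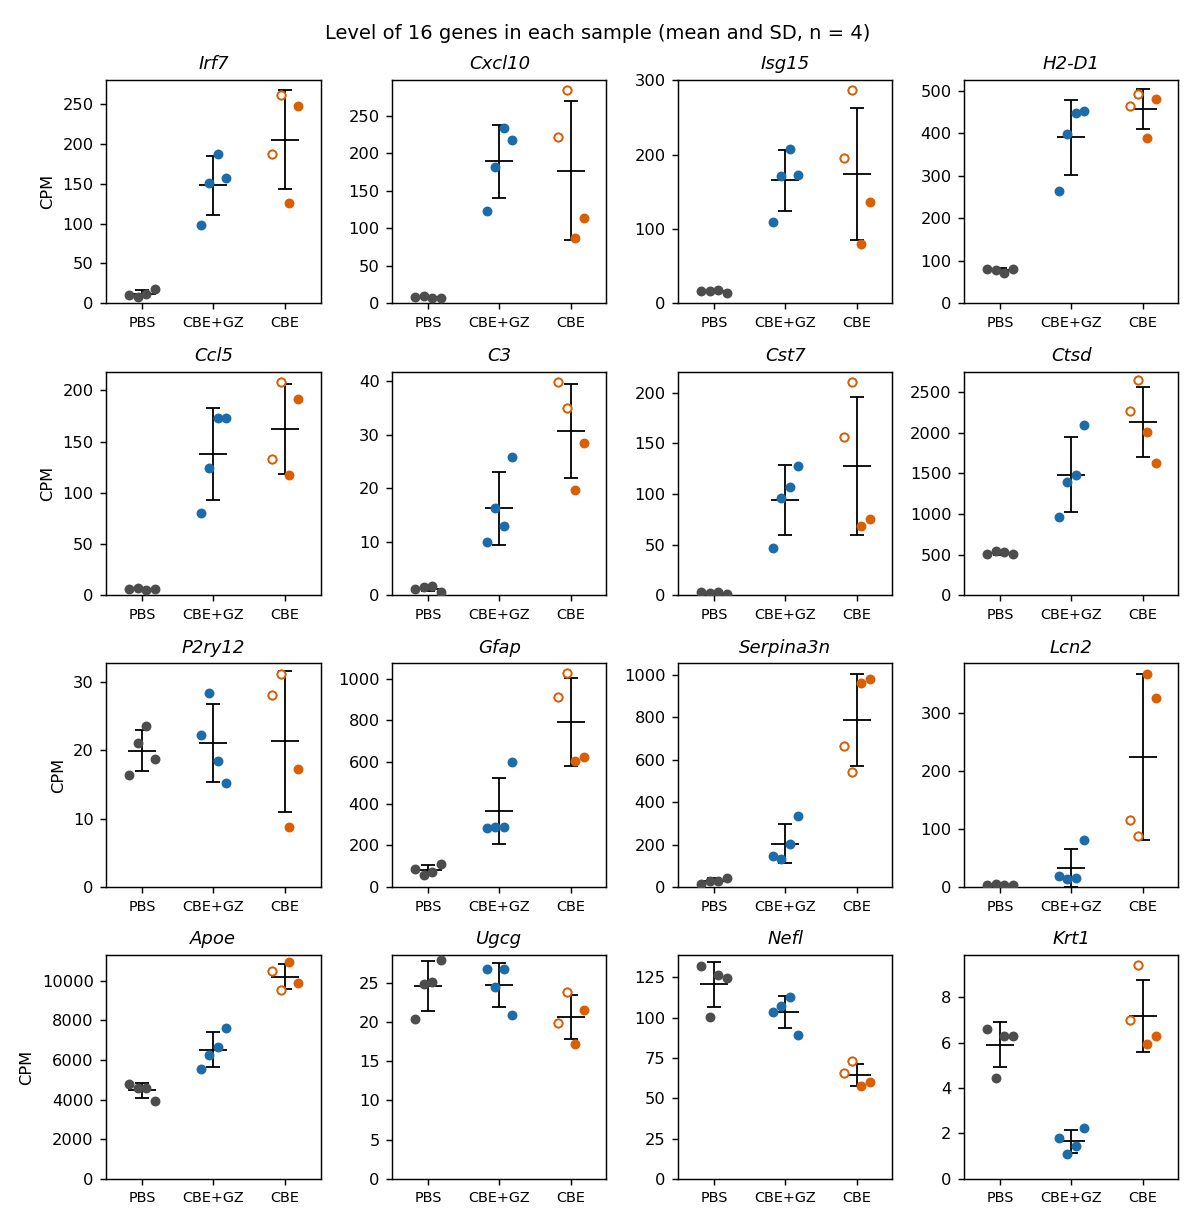
Each panel gives the CPM of 1 gene in the 4 samples of PBS, CBE+GZ-667161 and CBE, with the mean and SD in black and open symbols for the day 34 CBE samples. Irf7, Cxcl10 and Ccl5 are at least 80.2 CPM in every treated sample, Ugcg and P2ry12 overlap between PBS and CBE+GZ-667161, and Krt1 is at most 2.23 CPM in CBE+GZ-667161 and higher in every other sample.

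Of the neuronal lists few genes passed. Pan-neuronal and axon genes were called in 0 of 24 cases by edgeR, DESeq2 and limma-voom, although 8 were lower at an unadjusted p under 0.05 and 2 of 24 had a fold change above 0 (median -0.26). Nefl, the light neurofilament chain, was at 132, 100, 127 and 125 CPM in PBS and 104, 107, 113 and 89.5 CPM in CBE+GZ-667161 (log2 fold change -0.22 ± 0.12, adjusted p = 0.48). Of 26 tested presynaptic genes 1 fell, and 0 of 26 had a fold change above 0 (median -0.25). That gene was Nptx2, a secreted pentraxin that depends on neuronal activity, at 65.1, 40.2, 57.0 and 38.5 CPM in PBS and 20.4, 24.5, 24.7 and 33.0 CPM in CBE+GZ-667161 (-0.98 ± 0.21, adjusted p = 0.011). The groups did not overlap, and the call ended without PBS replicate 2 (adjusted p = 0.057). The 6 neuron markers summed to 4467 to 4831 CPM in PBS and 3736 to 4673 CPM in CBE+GZ-667161.

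Immediate early genes, which respond to neuronal firing within minutes, fell in 3 of 24 tested cases and rose in 0 (median -0.48). Fosl2 was at 53.2, 22.8, 34.8 and 23.4 CPM in PBS and 14.5, 8.88, 6.70 and 16 CPM in CBE+GZ-667161 (-1.56 ± 0.36, adjusted p = 0.018). Fosb was at 54.8, 17.7, 22.6 and 21.8 CPM in PBS and 13.6, 9.53, 13.2 and 9.80 CPM in CBE+GZ-667161 (-1.32 ± 0.34, adjusted p = 0.039). PBS replicate 2 was the highest of all 8 samples for both genes. Homer1, a scaffold of the excitatory synapse with an activity-induced short form, changed by -0.79 ± 0.18 (adjusted p = 0.016), and its groups overlapped. The number of called genes in this list was 0 without PBS replicate 2 or treated replicate 4. It was 1 without treated replicate 3 or 5 or without both striatum-high samples. It was 6 without PBS replicate 3, and 6 with striatal marker level as a term. Cartpt, the 1 called gene of 22 neuropeptide precursors (-1.68 ± 0.44, adjusted p = 0.047), was at 157 CPM in PBS replicate 3 and at 14.3 to 45.7 CPM elsewhere. Both samples numbered replicate 3 were striatum-high, and the treated one had the lowest Cartpt of the 8 samples, 14.3 CPM. Without PBS replicate 3 the value of Cartpt was -0.70 (adjusted p = 0.18), and the call also ended without PBS replicate 4 or any 1 treated sample. Atp2b4, a calcium pump, changed by -0.62 ± 0.16 (adjusted p = 0.046), with overlapping groups and a call that only the omission of treated replicate 5 or PBS replicate 5 left in place.

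The 10 falls of largest size among called genes without overlap began with Krt1. This keratin of skin (chromosome 15, 101845426 to 101850794, minus strand) was at 6.61, 4.47, 6.28 and 6.31 CPM in PBS and 1.82, 1.08, 1.46 and 2.23 CPM in CBE+GZ-667161 (-1.87 ± 0.33, adjusted p = 0.0023). It was the 1 called gene of 9 tested in the keratin and skin list. After Fosl2, Zfp366 and Fosb came Gldc, an enzyme that cleaves glycine (-1.10 ± 0.26, adjusted p = 0.024), Nptx2, AW047730 (-0.90 ± 0.18, adjusted p = 0.0075), Rrp7a, a factor of ribosome assembly (-0.81 ± 0.17, adjusted p = 0.011), Csdc2, an RNA-binding protein (-0.69 ± 0.13, adjusted p = 0.0051), and Nab2, a partner of EGR factors (-0.67 ± 0.18, adjusted p = 0.048). Zfp366 changed by -1.55 ± 0.40 (adjusted p = 0.040). Krt1, AW047730 and Csdc2 kept their calls whichever sample was left out. Nptx2 lost its call without PBS replicate 2, Rrp7a without treated replicate 4 (adjusted p = 0.058) and Fosl2 without PBS replicate 2 or treated replicate 3 or 4 (adjusted p up to 0.095). The call of Gldc ended without PBS replicate 2 or 5 or treated replicate 2, 3 or 4 (adjusted p up to 0.12). Only the omission of PBS replicate 3 or 5 kept the call of Fosb (adjusted p up to 0.20 otherwise), only that of PBS replicate 2 or 3 the call of Zfp366 (up to 0.14), and only that of PBS replicate 5 the call of Nab2 (up to 0.22).

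The 10 rises of largest size among called genes without overlap were Clec7a, Cst7, Cxcl13, Ifi206, Hcar2, Ccl3, Cxcl10, Ccl5, Ccl4 and Ifi204. Ifi206, another p200 gene, had 1 count in PBS and 49 in CBE+GZ-667161 (ratio 53.1, 95% counting interval 9.09 to 2140), and Hcar2, a receptor for hydroxybutyrate, had 1 and 43 (ratio 46.6, interval 7.92 to 1880). Among the most abundant called genes the differences were smaller. Besides Apoe, Ctsd and C1qa they were Itm2b, a membrane protein (0.39 ± 0.10, adjusted p = 0.036), Prdx6, a peroxidase (0.47 ± 0.12, adjusted p = 0.039), Rps7, a ribosomal protein (0.48 ± 0.11, adjusted p = 0.014), and the lower genes Git1 and Uqcrh, which encode a signalling scaffold and a respiratory chain subunit (-0.40 ± 0.10 and -0.47 ± 0.12, adjusted p = 0.036 and 0.034). None of the last 5 kept its call in every fit that left out 1 sample. Rps7 lost it without PBS replicate 5 (adjusted p = 0.055), Prdx6 without PBS replicate 3, 4 or 5 or treated replicate 3 or 5 (up to 0.15), and Uqcrh without PBS replicate 2, 3 or 4 or treated replicate 2 or 4 (up to 0.15). Itm2b kept it without PBS replicate 5 or treated replicate 2 (up to 0.12 otherwise) and Git1 without treated replicate 3 (up to 0.18 otherwise).

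Levels in CBE+GZ-667161 were then set beside CBE alone, to ask which of the 435 genes also differed between the treatments. The 2 comparisons share the CBE+GZ-667161 samples. Against CBE 1.28% of the tested genes were called, and 30 of these genes were among the 435. Of the 30, 28 were higher than in PBS and lower than in CBE, 2 lay in the same direction from both, and 405 of the 435 were not called against CBE. A gene that is not called against CBE is not shown to be equal to it. With the day 40 CBE samples alone, the number was 47 in place of 30, and 26 were shared by both counts. Of the 47, 37 were lower and 10 higher than CBE, and 11 lay in the same direction from PBS and from CBE.

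Genes of several lists were lower than in CBE, counted here over all tested members whether or not they were called against PBS. Of the reactive astrocyte list 12 of 37 tested genes were lower than in CBE and 0 higher, of the disease-associated microglia 6 of 36, of the lysosomal hydrolases and membrane proteins 8 of 52 and of the protease inhibitors 5 of 16. In the glucocorticoid-responsive list 7 of 16 were lower, in that of cholesterol efflux and LXR targets 5 of 24, in that of astrocyte homeostasis, of which 0 rose against PBS, 4 of 24 and in that of metallothioneins, NRF2 targets and antioxidants 3 of 24. All 4 CBE samples were low in Xist (0 to 0.555 CPM), while 3 of the 4 CBE+GZ-667161 samples were high, so sex and treatment cannot be fully told apart in this comparison. Serpina3n averaged 28.8 ± 12 CPM in PBS, 204 ± 91.5 in CBE+GZ-667161 and 788 ± 218 in CBE (mean ± SD, n = 4 each), a log2 difference from CBE of -1.96 ± 0.30 (adjusted p = 0.010). Lcn2 averaged 3.55 ± 0.655, 32.1 ± 32.7 and 224 ± 143 CPM in the same order (-2.92 ± 0.53 from CBE, adjusted p = 0.017), and Timp1 1.38 ± 0.708, 14.9 ± 4.61 and 49.6 ± 24.1 CPM (-1.79 ± 0.31, adjusted p = 0.014). Apoe differed from CBE by -0.65 ± 0.11 and Cyba by -1.04 ± 0.19 (adjusted p = 0.011 and 0.016). Gfap differed by -1.12 ± 0.25, Cd68 by -0.89 ± 0.21 and S100a6 by -0.74 ± 0.16 (adjusted p = 0.040, 0.044 and 0.032). With the day 40 CBE samples alone, Gfap and Cd68 were not called (adjusted p = 0.11 and 0.072).

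Interferon effectors did not pass in that comparison. Of 52 tested, edgeR called 0, DESeq2 and limma-voom 1 lower each, and 1 was higher and 2 lower at an unadjusted p under 0.05 (median difference from CBE -0.16). Isg15 averaged 165 ± 40.7 CPM in CBE+GZ-667161 and 175 ± 88.8 CPM in CBE (-0.07 ± 0.28, adjusted p = 0.93). Cxcl10 averaged 189 ± 48.8 and 177 ± 92.1 CPM (0.11 ± 0.29, adjusted p = 0.89). The CBE samples were split by day for both genes: Cxcl10 was at 222 and 284 CPM at day 34 and at 87.5 and 114 CPM at day 40. Against the day 40 samples alone Cxcl10 was higher in CBE+GZ-667161 by 0.91 ± 0.23 (adjusted p = 0.030), and Isg15 by 0.61 ± 0.24, which did not pass (adjusted p = 0.15).

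With all 4 CBE samples, the 2 genes that lay in the same direction from both groups were Krt1 and Acvr1, in place of 11 genes with the day 40 CBE samples alone. Krt1 was lower than in CBE by 2.13 ± 0.34 on the log2 scale (adjusted p = 0.010), where it was at 7.01, 9.44, 5.95 and 6.29 CPM in replicates 2, 3, 4 and 6, close to the PBS levels. Acvr1, a receptor of the bone morphogenetic protein family, was at 29.6, 31.1, 29.3 and 37.1 CPM in PBS and 44.1, 43.8, 51.3 and 49.9 CPM in CBE+GZ-667161 (0.56 ± 0.13 over PBS, adjusted p = 0.018). In CBE it was at 32.3, 30.5, 31.2 and 29.8 CPM (0.61 ± 0.13 over CBE, adjusted p = 0.035). No sample of CBE+GZ-667161 overlapped either other group for these 2 genes. The call of Acvr1 against PBS ended without PBS replicate 4 or treated replicate 4 or 5 (adjusted p up to 0.067). Nefl and Hmgcs1, which were not called against PBS, were higher than in CBE by 0.69 ± 0.13 and 0.74 ± 0.15 (adjusted p = 0.017 and 0.028).

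**Figure D5:**
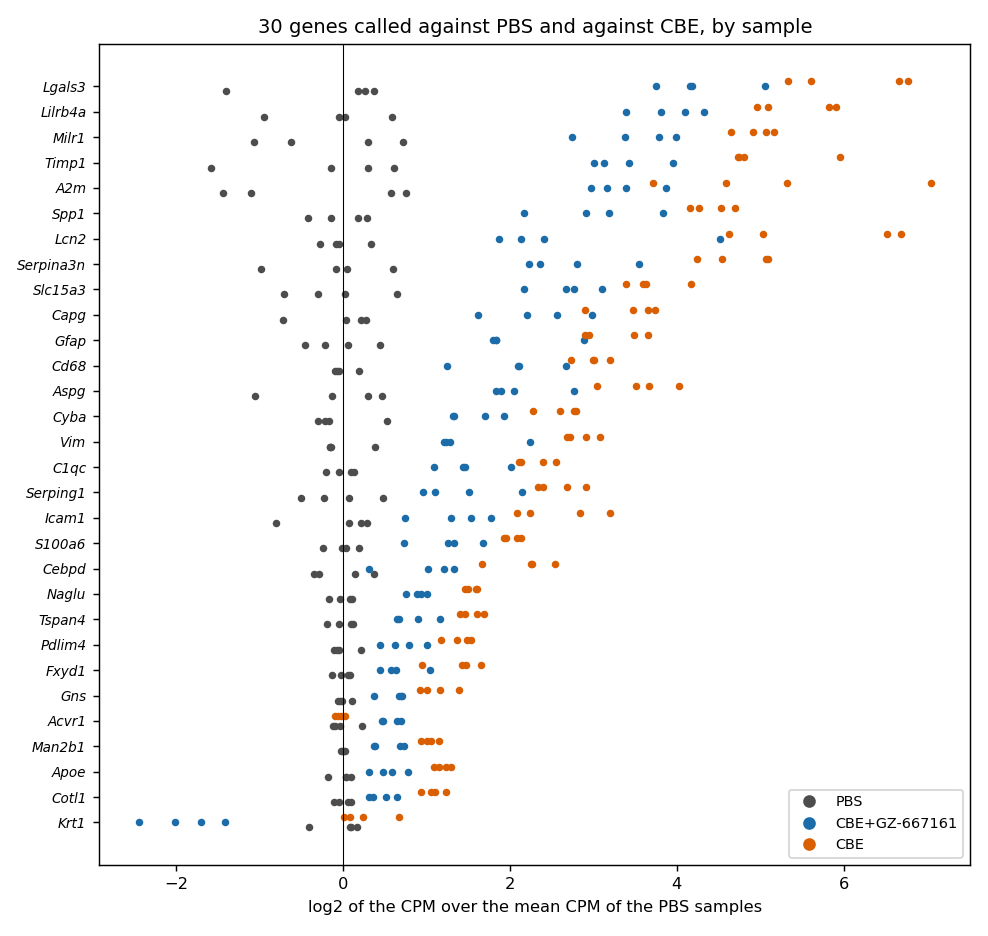
Each row is 1 of the 30 genes called both against PBS and against CBE, and each point a sample, as log2 of its CPM over the mean of the PBS samples. In 28 rows the CBE+GZ-667161 samples (blue) lie between PBS (grey) and CBE (orange) in their mean. Krt1, at the bottom, is lowest in CBE+GZ-667161, and Acvr1 is highest there.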

How the data were processed

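RNA of 12 mouse brain samples was sequenced with MARS-seq adapted to bulk RNA, per the labels' protocols. MARS-seq reads the 3′ ends of transcripts. The authors deposited raw read counts per gene symbol, and a table with their log2 fold changes and adjusted p-values per the file headers. The submitters' processing notes name cutadapt, HISAT 0.1.6, HTSeq and DESeq2 with build mm10. The gene annotation, the strand setting and the use of molecular identifiers are not given in the sources used here, so reads of overlapping, antisense or near-identical genes may be shared, and amplification copies may remain in the counts.

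From the counts, 23 entries altered into dates were set apart, and genes with at least 10 counts in enough samples and 15 in total were kept. Shares and medians of lists cover tested members, and a gene scarce in PBS could pass this filter through another group. Then edgeR 4.0.16 (R 4.3.3, TMM, quasi-likelihood test) was fitted once to the 3 groups. The threshold was an adjusted p of 0.05. Alternatives used DESeq2 1.42.0, limma-voom 3.58.1, other scaling and filters, covariates, fewer samples and each sample left out. Positions are from GENCODE M21 on mm10. Counting intervals are exact at 95% and cover counting error only. The procedure was tested on simulated counts.

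Named genes are the 10 largest rises and 10 largest falls without overlap, up to 3 called genes of each of 60 lists, a fixed panel, the 8 most abundant called genes, and genes called in the same direction against PBS and CBE. The comparison and the lists were chosen with earlier results of these data known. Some genes that this rule took are not reported here.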

Additional observations from a re-analysis of the deposited data

Results flagged for a closer look

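In each group of 4 samples, a sample was singled out when its distance to the nearest other sample was large against the range of the group (Dixon's criterion for 4 samples). This happened in 24 of 220 groups checked (10.9%), where chance alone gives about 1 in 20. Groups with counts in 1 sample only meet the criterion by construction, and the 24 include such groups. Genes share samples, so the groups are not independent.

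Replicate 2 of CBE+GZ-667161 stood below its group for Bst2 (110 CPM), Itgb2 (18.9 CPM), Tlr2 (16.1 CPM), Tlr13 (5.45 CPM), Ctss (460 CPM) and Hcar2 (1.14 CPM), and above it for Ttr (329 CPM). Replicate 5 of CBE+GZ-667161 stood above its group for Irf8 (55.2 CPM), Gfap (600 CPM) and Lcn2 (81.1 CPM). Replicate 3 of CBE+GZ-667161 and replicate 3 of PBS stood above their groups in summed striatal markers (1366 and 1412 CPM).

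Among the PBS samples, replicate 3 was also high for Cartpt (157 CPM) and Cyba (33 CPM) and low for Krt1 (4.47 CPM). PBS replicate 5 was high for Ttr (103 CPM), Cxcl13 (0.461 CPM) and Ifi206 (0.154 CPM) and low for Ncf1 (7.23 CPM). PBS replicate 4 was high for Itgb2 (8.8 CPM), Cd68 (23.5 CPM) and Hcar2 (0.419 CPM). For Cxcl13, Ifi206 and Hcar2 the PBS group had 3, 1 and 1 counts, all in the sample singled out, so these say nothing of that sample. PBS replicate 2 was high for Fosb (54.8 CPM) and low for Hmgcs1 (250 CPM).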

How the results depend on the processing

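Of 435 called genes, 42 were lower. The lower count was 103 with DESeq2, 64 with Ttr level as a term, 7 with a test against a 1.2-fold change, and 8 to 41 when 1 sample was left out. At an adjusted p under 0.01 there were 261 genes, 256 higher and 5 lower. Of the settings chosen after seeing the data, the Xist-high samples alone gave 143 (142 and 1), and the fit without both striatum-high samples gave 267 (252 and 15), both with fewer samples. Striatal marker level as a term, another such setting, gave 448 (399 and 49) on all samples. Leaving out 1 sample gave 326 to 431 genes in all. Of 101 named genes that passed, 77 kept their call whichever sample was left out, and 76 did under every alternative not chosen after seeing the data, at the threshold of 0.05 with no minimum fold.

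Signs changed for 4 genes that were not called. P2ry12 ranged from -0.070 without CBE+GZ-667161 replicate 3 to 0.21, and was -0.028 without both striatum-high samples. Ugcg ranged from -0.046 without PBS replicate 2 to 0.089, and was -0.014 with Xist and -0.0079 with Ttr as a term. In the Xist-high samples alone Ugcg was -0.14 and Gba2 -0.076. Ttr ranged from -0.10 without CBE+GZ-667161 replicate 2 to 2.91. The causes were not tested.

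With the day 40 CBE samples alone, 47 genes also differed from CBE, in place of 30. With a further A in the motif, 12.9% of windows of genes called higher and 2.93% of those of tested genes held it. A fit with the replicate number as a block called 404 genes, 369 of them among the 435. Deviations of same-numbered samples correlated at -0.0785, 0.237, 0.0446 and -0.0411, so the numbers were not taken to pair the samples.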

Other observations

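Several immune transcripts had too few counts for the tests above and were chosen after their values were seen. The search took only genes with few or no counts in PBS and more in CBE+GZ-667161, so high ratios were fixed by the choice. No matching search was made for genes low in CBE+GZ-667161, and a rise of these genes was not tested. Pdcd1, the gene of the inhibitory receptor PD-1, had 0 counts in the 4 PBS samples and 21 in CBE+GZ-667161. With PBS set to a floor of 3 counts over the group, the ratio scaled for library size was 7.58. Such a ratio leaves out the error of the treated count and is not a lower bound. Cd8a, the coreceptor of cytotoxic T cells, had 3 and 25 counts (ratio 9.02, 95% counting interval 2.75 to 46.7). Cd69, an early activation marker of lymphocytes, had 2 and 25 counts (ratio 13.5, interval 3.37 to 118). Acod1, which makes itaconate in activated macrophages, had 1 and 24 counts (ratio 26, interval 4.24 to 1070). The intervals cover counting error and not the spread between samples.

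The same choice gave Oas1g and Apol9a, 2 further interferon-induced genes, and Aoah. Oas1g and Apol9a had 0 counts in PBS and 15 each in CBE+GZ-667161, a ratio of 5.41 to the same floor. Aoah, an enzyme that inactivates bacterial lipopolysaccharide, had 0 and 14 counts, a ratio of 5.05 to that floor.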
